A study of Homo sapiens with 48 samples.

Results

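T-REX at 6 h was compared with its probe alone control, gene by gene, in 8 of the 48 RNA-seq libraries of the series. The comparison took the 4 T-REX and the 4 probe alone libraries of that time point and every one of the 14685 genes counted in them. All libraries came from HEK293T, a transformed human embryonic kidney line, labelled as wild type and made to express NCBP1 fused to Halo from a transfected plasmid. T-REX cells were given Ht-PreHNE, a photocaged form of the lipid aldehyde 4-hydroxynonenal (HNE) that binds Halo, were washed, and were then lit to set HNE free beside NCBP1. The T-REX Methods, which cover the plates for RNA-seq, give the alkyne form of the probe, which frees an alkyne analog of HNE. The paper's Results assign native HNE to studies of signaling, so the form used here is not settled, and HNE stands for either. Probe alone cells were given Ht-PreHNE and no light, so that the fusion protein and the bound probe are common to both groups and the light, with the HNE it frees, is what differs. The other arms of the time point, light alone and DMSO without probe or light, entered the estimate of spread. The Methods list both the probe and light for light alone, so how it was handled differently from T-REX is not settled here, and values beside it are given on its label. Expression of the fusion was transient, and the labels do not say whether libraries with the same replicate number share a culture, so that p-values measure the spread between libraries.

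NCBP1 is the larger protein of the complex that, in the nucleus, binds the cap of new transcripts and hands them to splicing, export and decay factors. HNE is a product of lipid peroxidation that attaches to cysteine, histidine and lysine side chains. Cells answer such electrophiles, and shortages of amino acids, glucose or oxygen, with well studied sets of genes, among them targets of NRF2, of ATF4 in the integrated stress response, of the glucose sensor MondoA and of the hypoxia-inducible factors (HIF).

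The 8 libraries were of like depth. T-REX libraries held 28648934 to 35492475 counts in total (median 29717989.5), and probe alone libraries 29344055 to 32360104 (median 30231037). Levels are given as CPM, counts relative to the library total scaled by edgeR's TMM factor, which lay between 0.967 and 1.02. Pairs of replicates gave a chi-square of 5.07 to 15 per degree of freedom, above counting error alone, so the test used the spread between libraries. In the first principal component of the 16 libraries (35.6% of the variance), the light alone replicate 3 and the DMSO replicate 3 stood farthest out, at -24.9 and 17.8, while the 8 libraries compared lay between -5.24 and 7.57. Of 9 markers of HEK293T and epithelial-like cells, 6 had a value here. VIM, an intermediate filament of mesenchymal cells, lay between 481 and 520 CPM in the 8 libraries, the neural cadherin CDH2 between 67.9 and 79.7, the simple-epithelium keratins KRT8 and KRT18 between 6.22 and 11.4, and the epithelial cadherin CDH1 between 1.46 and 2.65. The remaining marker, LHX1, lay between 1.65 and 2.79, while KRT19, PAX2 and EPCAM had no value. The summed level of these markers, most of it VIM, ran from 570 to 619 CPM under T-REX and from 592 to 618 with probe alone. Of the markers of fibroblasts, endothelial and blood cells, COL1A1 was the 1 with a value, between 2.79 and 4.45 CPM, and the rest were not analysed here.

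NCBP1 itself (ENSG00000136937), the fused target, was read from counts in which the plasmid and the endogenous gene are not separated. It stood at 73272, 65121, 70599 and 79216 CPM in T-REX replicates 1 to 4 and at 87193, 64233, 87477 and 89353 CPM in probe alone replicates 1 to 4. The 2 groups overlapped, because probe alone replicate 2 lay below every T-REX library. The log2 fold change of T-REX minus probe alone was -0.19 (standard error 0.136, adjusted p = 0.878) and was not called. With only these 8 libraries and the replicate number as a block it was called, at -0.18 (adjusted p = 0.0155). That fit called 593 genes in all, and with the 8 libraries and no block NCBP1 was not called (adjusted p = 0.552). The arms outside the comparison held less NCBP1, 41311 ± 8808 CPM with light alone and 53212 ± 5771 with DMSO (mean ± SD, n = 4).

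Few genes were called between T-REX and probe alone at 6 h when the spread was taken from all 16 libraries. By the quasi-likelihood test of edgeR, adjusted by Benjamini-Hochberg over all genes, 16 of 14685 genes (0.109%) were called at an adjusted p of at most 0.05. Of these, 13 were lower (0.0885% of genes) and 3 higher (0.0204%) under T-REX. In all 16, no T-REX library overlapped a probe alone library. Over all genes, 488 (3.32%) lay wholly below and 447 (3.04%) wholly above. An unadjusted p of at most 0.05 was reached by 483 genes (3.29%) lower and 481 (3.28%) higher. The median log2 fold change of all genes was 0.01 and its median size 0.08. In bulk RNA, fewer cells with a transcript and less of it per cell cannot be told apart. The lower genes described here were the vitamin A receptor RARB, the arrestins TXNIP and ARRDC4, the hypoxia-responsive genes STC1, EGLN3, BNIP3, PDK1 and KDM3A, and MAP2K6, PNRC1, FBXO5 and MTCO1P12. The higher ones were the cystine carrier SLC7A11, the vesicle coat gene SEC24D and the noncoding MIR4435-2HG. The count depended strongly on the fit. It was 57 with DESeq2 (34 lower, 23 higher), 88 in a fit of only these 8 libraries (63 lower), 257 with the RUV factors deposited by the authors as covariates, and 593 with only these 8 libraries and the replicate number as a block. It was 6 without T-REX replicate 4. Across the 26 alternatives set for this comparison, RARB, TXNIP, SLC7A11, KDM3A and PNRC1 were called in each.

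SLC7A11 (ENSG00000151012) encodes the light chain of the system that imports cystine in exchange for glutamate, the source of cysteine for glutathione, and is a target of both ATF4 and NRF2. It stood at 159, 156, 144 and 163 CPM under T-REX against 95.6, 86.5, 97.6 and 94.8 with probe alone. Every T-REX library was well above every probe alone library, and also above every light alone library (83.9 to 106) and DMSO library (76.5 to 105). The rise was 1.66-fold (log2 fold change 0.73, standard error 0.0795, adjusted p = 2.2e-05 by edgeR's quasi-likelihood test). It lay between 0.69 and 0.83 on the log2 scale over the alternatives tried and was called in each.

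The other amino acid transporters leaned the same way with smaller differences that did not pass the test. Of 15 transporters tested, SLC7A11 was the 1 called, 13 had a log2 fold change above 0, and the median was 0.16, beside 0.01 for all genes. In 6 of the 15, all T-REX libraries lay above all probe alone libraries, where 3.04% of all genes did. SLC1A4, which carries serine, alanine and cysteine, read 38.9, 40.8, 39.5 and 41.8 CPM under T-REX and 29.8, 30.3, 31.6 and 34.4 with probe alone (log2 fold change 0.35, adjusted p = 0.0799). The glycine carrier SLC6A9 read 18, 16.5, 17.4 and 22.9 CPM against 12.2, 12.5, 12.9 and 13.6 (0.55, adjusted p = 0.0865). The groups did not overlap in either gene, and neither was called. The same held for the arginine and lysine carrier SLC7A1 (log2 fold change 0.25, adjusted p = 0.128), the glutamine carrier SLC38A1 (0.15, adjusted p = 0.363) and SLC3A2, the heavy chain that pairs with SLC7A11 (0.21, adjusted p = 0.562).

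Genes of amino acid and one-carbon synthesis gave a like picture without a call in the fit of 16 libraries. None of the 15 tested was called there, and the median log2 fold change was 0.19. An unadjusted p of 0.05 was reached by 7, all of them higher, where 3.28% of all genes were higher. MTHFD2, the mitochondrial folate enzyme, read 105, 103, 100 and 102 CPM under T-REX against 92.6, 91.1, 83.3 and 86.4 with probe alone (log2 fold change 0.21, adjusted p = 0.206). PSAT1, a serine synthesis enzyme, read 146, 150, 153 and 148 against 131, 125, 125 and 128 (0.23, adjusted p = 0.256). Both were apart in all libraries. Both were called with only the 8 libraries (adjusted p = 0.0332 and 0.00568) and with the RUV factors (0.00504 and 0.00119). Neither was called with DESeq2 (adjusted p = 0.0629 and 0.145) or with the replicate block on 16 libraries (0.243 and 0.233). Each was called in 1 of the 16 fits that left out 1 library. Among 19 regulators of the integrated stress response, none was called and the median was 0.08. By unadjusted p (0.05), 4 were higher and 2 lower, where 3.28% and 3.29% of all genes were. ATF4, the transcription factor at the centre of that response, read 356, 378, 371 and 371 CPM against 331, 331, 333 and 350 (log2 fold change 0.14, adjusted p = 0.717). Its T-REX values were all higher by a narrow margin. Of 20 cytosolic aminoacyl-tRNA synthetases, which load tRNAs, none was called, and their median was 0.06. At an unadjusted p of at most 0.05, 7 of the 20 were higher, where 3.28% of all genes were. MARS1, the methionine enzyme of that family, had a log2 fold change of 0.20 (adjusted p = 0.386) and YARS1, the tyrosine enzyme, 0.21 (adjusted p = 0.719).

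Of 18 NRF2 targets tested, SLC7A11 was again the 1 called. HMOX1, which breaks down haem, read 20.6, 27.2, 24.5 and 26.7 CPM under T-REX against 19.7, 17.5, 20.4 and 19.5 with probe alone (log2 fold change 0.36, adjusted p = 0.363). Its groups were separated by a small gap. The list's median was 0.07, and 4 members were higher and none lower by unadjusted p (0.05), where 3.28% of all genes were higher. NQO1, a quinone reductase often read as a marker of NRF2, had a log2 fold change of -0.04 (adjusted p = 0.986).

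SEC24D (ENSG00000150961) encodes a cargo-binding subunit of the COPII coat, which buds vesicles from the endoplasmic reticulum. It stood at 77.0, 88.4, 77.5 and 80.6 CPM under T-REX and at 62.3, 63.8, 61.3 and 65.7 with probe alone. The 4 T-REX libraries were higher than each of the 12 libraries of the other arms. The rise was 1.28-fold (log2 fold change 0.35, standard error 0.0639, adjusted p = 0.0151). The call ended on leaving out T-REX replicate 2 or 4, or probe alone replicate 1, 2 or 3, with log2 fold changes between 0.31 and 0.38 over all alternatives. Among the 14 COPII genes tested it was the 1 called, and its paralogs SEC24A, SEC24B and SEC24C had log2 fold changes of -0.05, -0.06 and 0.04. The list's median was 0.03. Of 31 genes of the unfolded protein response and folding in the endoplasmic reticulum, none was called in the fit of 16 libraries. Still, 28 had a log2 fold change above 0, and the median was 0.08, beside 0.01 for all genes. At an unadjusted p of at most 0.05, 6 were higher and none lower, where 3.28% of all genes were higher. At 3 and 12 h the unfolded protein response list had medians of 0.03 and -0.004, beside 0.02 and 0.001 for all genes. XBP1, a transcription factor of that response, read 79.4, 77.6, 81.3 and 80.5 CPM against 70.7, 59.8, 61.5 and 69.2 (log2 fold change 0.29, adjusted p = 0.0846). CREB3L2, a membrane-bound factor of the secretory pathway, read 188, 188, 184 and 191 against 168, 161, 155 and 164 (0.21, adjusted p = 0.139). Both had every T-REX library above every probe alone library. Some other fits called them: with only the 8 libraries the adjusted p was 0.00754 for XBP1 and 0.00942 for CREB3L2, and with DESeq2 0.0088 and 0.0276. Neither was called with the replicate block on 16 libraries (adjusted p = 0.0684 and 0.161), with RLE factors or with limma-trend. XBP1 was called in 2 and CREB3L2 in 1 of the 16 fits that left out 1 library.

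MIR4435-2HG (ENSG00000172965), a long noncoding RNA that hosts a microRNA, was also called higher. It read 12.2, 12.7, 11.3 and 10.4 CPM under T-REX and 7.67, 9.03, 6.85 and 7.28 with probe alone. The 2 groups were apart, while light alone (8.15 to 10.4) reached from the probe alone range to the edge of the T-REX range, and DMSO (8.34 to 10.2) overlapped probe alone. The rise was 1.51-fold (log2 fold change 0.59, standard error 0.12, adjusted p = 0.044). The call was lost on leaving out any T-REX library, probe alone replicate 1, 3 or 4, light alone replicate 1 or 2, or DMSO replicate 1 or 2.

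TXNIP and ARRDC4 encode alpha-arrestins that slow glucose uptake and are the best known targets of MondoA, which binds carbohydrate response elements when glucose phosphates build up. TXNIP (ENSG00000265972) stood at 28.4, 33.6, 33.3 and 25.1 CPM under T-REX and at 60.4, 47.7, 59.8 and 64.6 with probe alone. T-REX libraries were all far below, and the light alone (52.1 to 60.5) and DMSO (54.5 to 56.7) libraries lay with probe alone. TXNIP was 1.93-fold lower (log2 fold change -0.95, standard error 0.0899, adjusted p = 1.4e-06). ARRDC4 (ENSG00000140450) stood at 23.1, 29.2, 27.9 and 24.5 CPM against 34.1, 38.2, 34.8 and 37.7. It was below every library of the other 3 arms and 1.38-fold lower than probe alone (log2 fold change -0.47, standard error 0.0869, adjusted p = 0.0217). Leaving out T-REX replicate 1 or 4, or probe alone replicate 2 or 4, ended its call. The other 6 genes of the alpha-arrestin and MondoA list were not called: ARRDC3, the close relative of both, had a log2 fold change of 0.15 (adjusted p = 0.826), MondoA itself (MLXIP) -0.06 (adjusted p = 0.949) and its partner MLX 0.26 (adjusted p = 0.812).

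Promoter letters are shown for 4 of the lower genes because their regulators are known by the elements they bind. The stretches are from RefSeq (GRCh38.p14, which is not stated to be the authors' build), each 80 bases long, read 5′ to 3′ on the gene's strand, with positions counted back from the annotated start. Capitals in the TXNIP stretch (chr1:145996620-145996699, minus strand, -120 to -41) mark 2 CACGNG boxes set 5 bases apart, the layout of a carbohydrate response element, whose first base is at -88. In ARRDC4 (chr15:97960463-97960542, plus strand, -240 to -161) and in BNIP3 (chr10:131982004-131982083, minus strand, -160 to -81) they mark CACGTG, at -210 and -134, which holds the HIF core ACGTG on both strands. In PDK1 (chr2:172556010-172556089, plus strand, -80 to -1, the second of its 2 windows) they mark ACGTG on the minus strand, at -17 and -8.
TXNIP: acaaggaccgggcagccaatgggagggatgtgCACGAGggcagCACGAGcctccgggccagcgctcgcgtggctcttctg
ARRDC4: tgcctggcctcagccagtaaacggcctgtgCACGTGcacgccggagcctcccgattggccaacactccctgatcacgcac
BNIP3: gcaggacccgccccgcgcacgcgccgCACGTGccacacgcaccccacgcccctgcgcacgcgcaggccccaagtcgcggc
PDK1: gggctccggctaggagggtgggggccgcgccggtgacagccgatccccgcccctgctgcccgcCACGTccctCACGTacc

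The 3 motifs differ widely in how common they are. Both strands of the 250 bases before the start were searched in 35116 windows. The paired CACGNG boxes were in 16 windows (0.0456%), CACGTG in 2228 (6.34%) and ACGTG, which CACGTG contains, in 6501 (18.5%). The paired boxes were searched in this exact form and spacing only, so looser forms of the carbohydrate response element are not in that count. Of the 16 called genes, 11 had a window and 7 of these held ACGTG in at least 1 window, namely TXNIP, ARRDC4, BNIP3, PDK1, MAP2K6, RARB and FBXO5, while KDM3A, EGLN3, PNRC1 and MIR4435-2HG held none there. Among all 27305 genes with a window, 21.7% held ACGTG, and of the hypoxia list below 13 of 20 did, a list of genes known as HIF targets. The 27305 genes were not limited to those tested here, and genes with several windows had more chances of a match. TXNIP held ACGTG in a window other than the one printed. A match describes these letters and was not tested as a binding site.

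Genes of the hypoxia response were mostly lower under T-REX, few of them by a call of their own. The list outside glycolysis held 27 tested genes, of which 4 were called, all lower (0.0885% of all genes were called lower). Of the 27, 25 had a log2 fold change below 0, 13 reached an unadjusted p of 0.05 (all lower, where 3.29% of all genes were), and 12 lay wholly below probe alone (3.32% of all genes). The list's median was -0.24. The list was chosen with earlier results of these data known.

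STC1 (ENSG00000159167), a secreted glycoprotein hormone raised by low oxygen, had the largest change of the called genes. It stood at 0.661, 1.29, 1.62 and 0.951 CPM under T-REX and at 5.93, 5.51, 2.14 and 3.86 with probe alone. Each T-REX library was below each of the 12 libraries of the other arms. It was 3.82-fold lower (log2 fold change -1.93, standard error 0.293, adjusted p = 0.0026), on a mean of only 83.4 counts per library. EGLN3 (ENSG00000129521), an oxygen-sensing prolyl hydroxylase that marks HIF for decay, read 7.37, 8.13, 9.74 and 7.44 CPM against 15.2, 19.4, 11.3 and 12.2. T-REX was the lower group without overlap, and 1 light alone library (9.33) reached into it. EGLN3 was 1.78-fold lower (log2 fold change -0.83, standard error 0.16, adjusted p = 0.0335), a call lost without T-REX replicate 1, 2 or 4 or DMSO replicate 1 or 2.

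BNIP3 (ENSG00000176171), a receptor that sends mitochondria to autophagy, read 26.4, 29.2, 31.6 and 27.7 CPM under T-REX and 52.4, 56.8, 36.4 and 41.5 with probe alone. The gap between the groups was small next to the spread of the probe alone libraries, and 1 light alone library (31.2) lay inside the T-REX range. BNIP3 was 1.63-fold lower (log2 fold change -0.70, standard error 0.12, adjusted p = 0.0151), a call that ended without T-REX replicate 1, 2 or 4, and also when the 8 libraries were fitted alone. Its relative BNIP3L read 122, 138, 139 and 129 CPM against 170, 178, 180 and 160, apart but not called (-0.38, adjusted p = 0.122). KDM3A (ENSG00000115548), a histone H3 lysine 9 demethylase that is itself a HIF target, read 138, 136, 140 and 132 CPM against 187, 206, 177 and 166. The 4 T-REX values were close together and below all 12 other libraries. KDM3A was 1.35-fold lower (log2 fold change -0.43, standard error 0.0626, adjusted p = 0.00119), and the call held in each of the 26 alternatives.

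PDK1 (ENSG00000152256), the kinase that shuts pyruvate out of the citric acid cycle, was the 1 gene called among 22 of glycolysis and glucose uptake. It stood at 84.1, 76.7, 75.2 and 77.5 CPM under T-REX and at 121, 146, 101 and 97.1 with probe alone. The T-REX group was tight and lower, the probe alone group wide. PDK1 was 1.49-fold lower (log2 fold change -0.57, standard error 0.107, adjusted p = 0.0425). The call ended without any 1 T-REX library, light alone replicate 3, or DMSO replicate 1 or 2, with the replicate block, and when the 8 libraries were fitted alone. PDK1-AS1, its antisense neighbour, named after its values were seen, had a log2 fold change of -1.03 (adjusted p = 0.0701), and the counting is not stated to use strand, so reads of the pair may be shared. The glycolysis list's median was -0.10, with 6 members lower and none higher by unadjusted p (0.05; 3.29% of all genes were lower) and 7 wholly below probe alone (3.32% of all genes). The glucose carrier SLC2A3 read 5.78, 6.77, 5.38 and 5.70 CPM against 10.9, 13.7, 8.89 and 8.09 (log2 fold change -0.82, adjusted p = 0.067), the gene nearest to a call. SLC2A1 (-0.52, adjusted p = 0.163), hexokinase HK2 (-0.36, adjusted p = 0.122) and PFKFB3, which sets the pace of glycolysis (-0.45, adjusted p = 0.139), were also apart by replicate, while LDHA overlapped (-0.25, adjusted p = 0.717). HIF1A mRNA had a log2 fold change of -0.06 (adjusted p = 0.922) and overlapped between the groups.

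The probe alone replicates were uneven in these genes. Probe alone replicates 1 and 2 both lay above replicates 3 and 4 in 16 of the 27 hypoxia genes (59.3%) and 12 of the 22 glycolysis genes (54.5%), against 17.3% of all genes. Among the called genes this held for 8 of 16, STC1, EGLN3, BNIP3, PDK1 and KDM3A among them. Without probe alone replicate 1 or 2, EGLN3, BNIP3 and PDK1 were no longer called, and the count over all genes was 8 and 7. Leaving out both, a fit added after the data were seen that keeps 2 probe alone libraries, left 3 calls in all, RARB, TXNIP and SLC7A11. The hypoxia list's median was then -0.10 (all genes 0.00), with 23 of 27 below 0. The log2 fold change of STC1 was -1.40 (adjusted p = 0.37), of BNIP3 -0.45 (adjusted p = 0.414) and of KDM3A -0.34 (adjusted p = 0.208). The part of the 2 libraries in the result was not tested further.

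**Figure D1:**
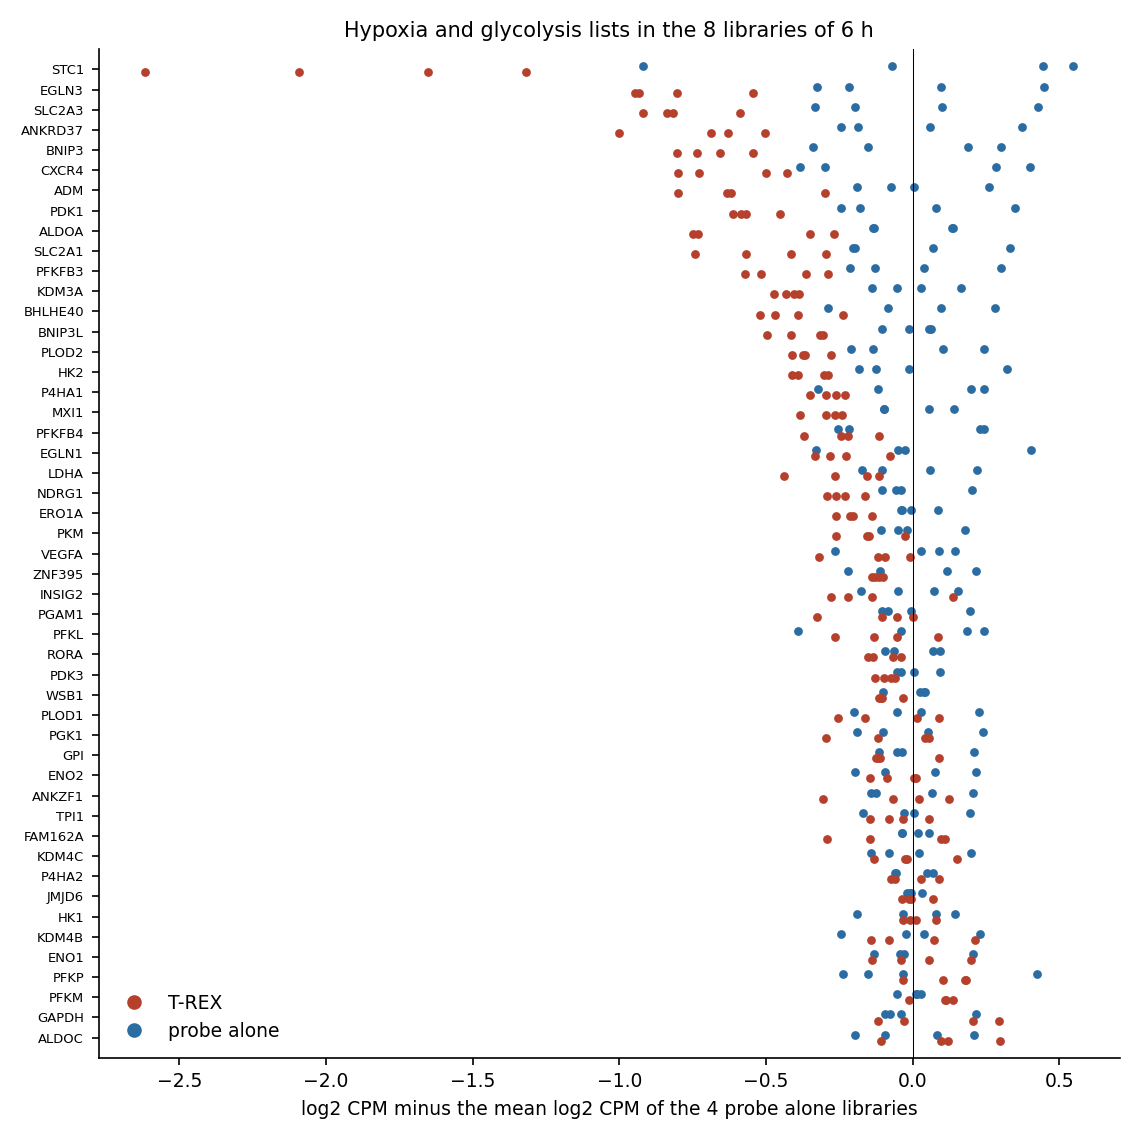
The 49 genes of the hypoxia and glycolysis lists, ordered by log2 fold change, with the log2 CPM of each of the 4 T-REX (red) and 4 probe alone (blue) libraries of 6 h less the mean log2 CPM of the 4 probe alone libraries. STC1 lies farthest to the left under T-REX, the genes with the lowest fold changes show red points to the left of the blue ones, and the groups mix in the genes near 0.

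RARB (ENSG00000077092), a nuclear receptor for retinoic acid whose own gene is a retinoic acid target, had the smallest p. It stood at 24.7, 24.9, 22.3 and 23.7 CPM under T-REX and at 57.0, 52.7, 51.9 and 51.4 with probe alone. The groups were far apart, and the other arms lay between them, light alone at 29.2, 33.4, 32 and 26.4 and DMSO at 35.7, 38.7, 33.9 and 32.3 CPM. RARB was 2.23-fold lower than with probe alone (log2 fold change -1.16, standard error 0.0785, adjusted p = 2.03e-09), and it was called in all 26 alternatives. The comparison has a moving control here: probe alone itself was above DMSO (log2 fold change 0.60, adjusted p = 0.00072) and above light alone (0.82, adjusted p = 2.46e-06). T-REX was below DMSO (-0.56, adjusted p = 0.000721), and against light alone the difference was -0.34 (adjusted p = 0.0698). Of the 10 retinoid receptors and handling genes tested, RARB was the 1 called, with a list median of -0.04. DHRS3, a retinaldehyde reductase that retinoic acid also raises, read 7.99, 6.87, 7.84 and 7.95 CPM against 11.6, 9.97, 10.3 and 10.8, apart without a call (-0.48, adjusted p = 0.301). In the same edgeR fit, DHRS3 under T-REX was not below light alone (0.15, adjusted p = 0.7), and against DMSO the difference was -0.27 (adjusted p = 0.426). Probe alone minus light alone was 0.63 (adjusted p = 0.0804) and probe alone minus DMSO 0.21 (adjusted p = 0.741). The receptors RARA and RARG had log2 fold changes of -0.08 and 0.08.

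MAP2K6 (ENSG00000108984), the kinase that activates p38, read 36.4, 41.2, 41 and 34.4 CPM under T-REX and 50.4, 58.6, 53.9 and 49.4 with probe alone. It was below all 12 libraries of the other arms and 1.39-fold lower than probe alone (log2 fold change -0.47, standard error 0.084, adjusted p = 0.0151). Without T-REX replicate 1, T-REX replicate 4 or probe alone replicate 2 it was not called. MAP2K3, the other main kinase of p38, had a log2 fold change of 0.05 (adjusted p = 0.977). PNRC1 (ENSG00000146278), a small nuclear receptor coregulator, read 118, 112, 122 and 114 CPM against 153, 144, 148 and 142. T-REX was again below every other library of 6 h, by 1.26-fold against probe alone (-0.33, standard error 0.048, adjusted p = 0.00119). FBXO5 (ENSG00000112029), which holds back the anaphase-promoting complex before mitosis, had the smallest change. It read 113, 109, 108 and 104 CPM against 131, 124, 131 and 127, apart in all libraries and 1.18-fold lower (-0.24, standard error 0.0471, adjusted p = 0.0335). Its call was lost without any 1 of the 8 libraries, light alone replicate 1, or DMSO replicate 1 or 2.

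MTCO1P12 (ENSG00000237973), an unprocessed pseudogene that copies mitochondrial MT-CO1, read 30.2, 23.9, 27.5 and 27.8 CPM under T-REX, with probe alone at 36.8, 42.3, 33.6 and 37.9 (log2 fold change -0.46, standard error 0.0932, adjusted p = 0.044). The groups did not overlap. Its level was 0.147% to 0.19% of that of MT-CO1 under T-REX and 0.199% to 0.232% with probe alone. How reads shared with MT-CO1, whose log2 fold change was -0.13 (adjusted p = 0.705), were counted is not stated, so its call is uncertain. It was also lost without any 1 T-REX library, probe alone replicate 1, 2 or 4, light alone replicate 1, or DMSO replicate 1, 2 or 4.

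**Figure D2:**
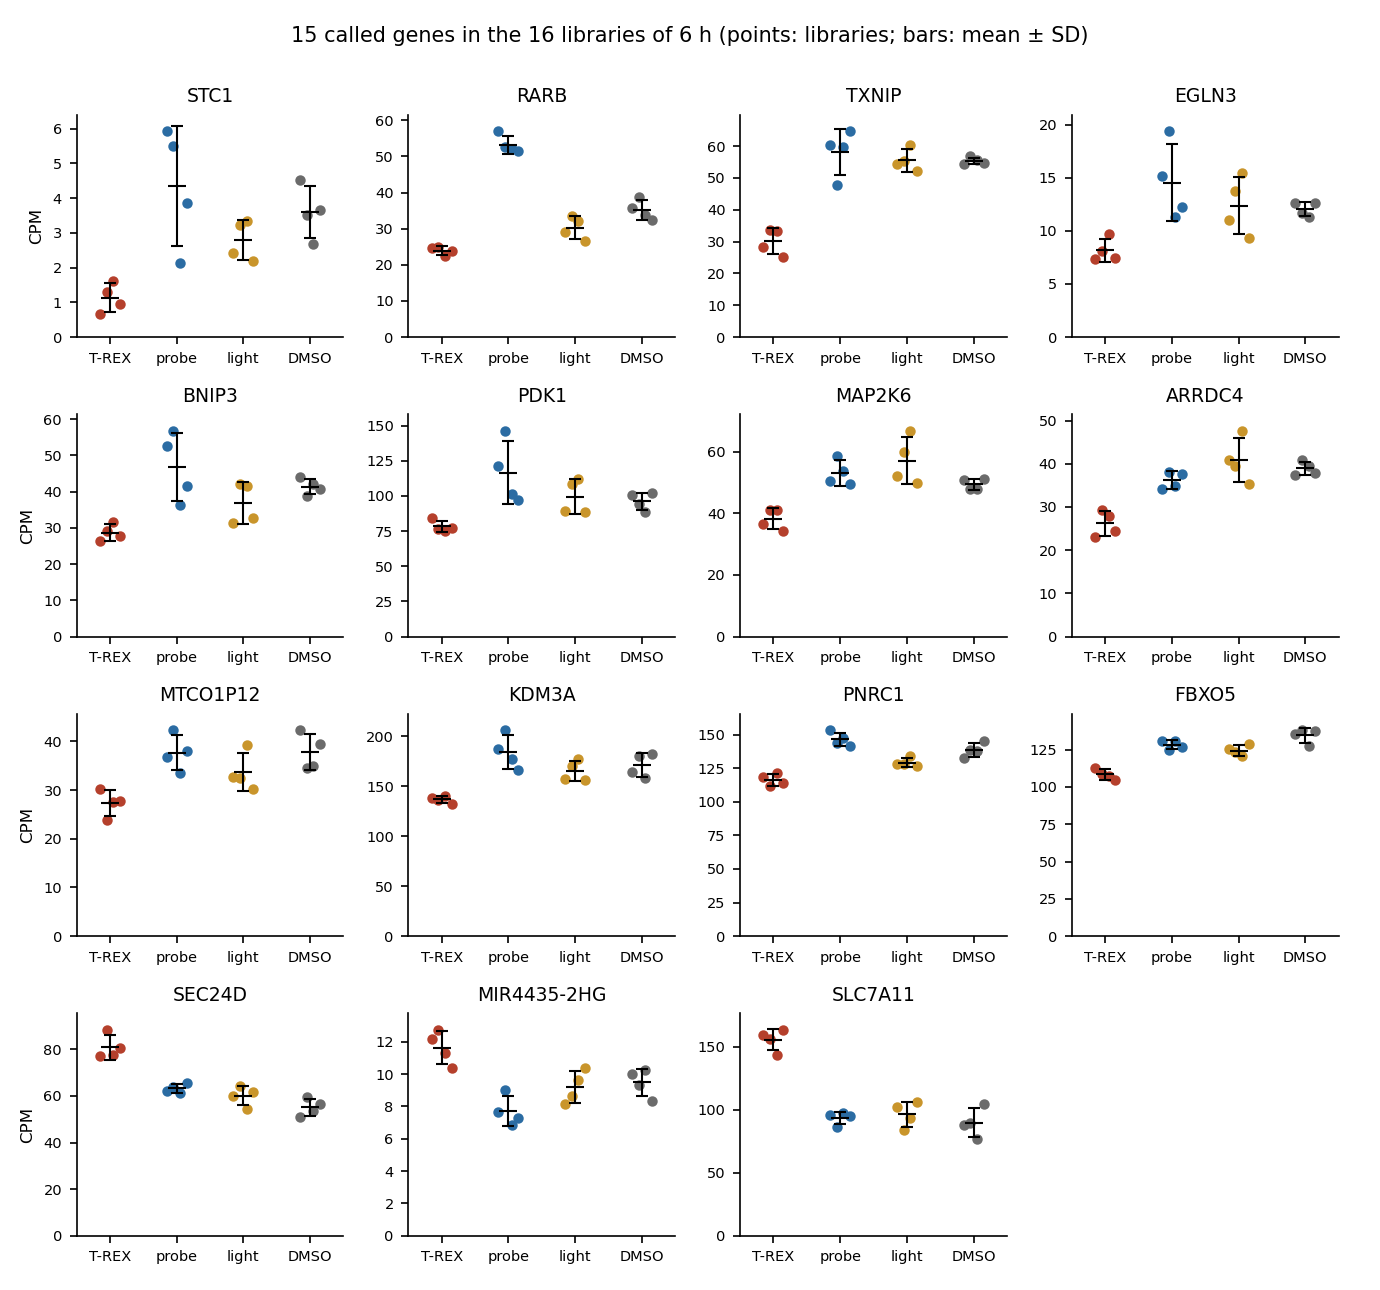
CPM of 15 called genes, ordered by log2 fold change, in each of the 16 libraries of 6 h (points) with mean ± SD (bars) for T-REX, probe alone, light alone and DMSO. T-REX has the lowest mean of the 4 arms in the first 12 panels and the highest in the last 3, and the probe alone points of STC1, EGLN3, BNIP3 and PDK1 are spread widely.

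Set beside the other 2 arms, which share the T-REX or probe alone libraries with the main comparison, T-REX had the lowest mean of the 4 arms in all 13 lower genes and the highest in all 3 higher genes. Every T-REX library was below all 12 others in 11 of the 13 and above all 12 in 2 of the 3. Probe alone had the highest mean of the 4 arms in 9 of the 13 lower genes. These 16 genes were called on T-REX against probe alone in the same libraries, so their order in those 2 arms was fixed beforehand. How often all genes show such rankings was not counted. Of the 16, 5 were also called against light alone (0.218% of genes were) and 11 against DMSO (0.415%). Between probe alone and light alone (0.0613% of genes called) and between probe alone and DMSO (0.0272%), RARB was the 1 called among them. For TXNIP, T-REX minus light alone was -0.88 and T-REX minus DMSO -0.88 on the log2 scale, and for SLC7A11 0.69 and 0.80. For BNIP3, in contrast, T-REX minus light alone was -0.36 (adjusted p = 0.258) and probe alone minus light alone 0.34 (adjusted p = 0.409). The median of the hypoxia list was -0.19 for T-REX minus light alone, -0.20 for T-REX minus DMSO, 0.08 for probe alone minus light alone and 0.05 for probe alone minus DMSO.

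Most lists held no called gene. Only 0.109% of all genes were called, so a list without a call says little about its members. In the edgeR fit of 16 libraries, 24 of the 32 lists had none, among them the 17 genes of the cap-binding complex and its partners (median -0.01), the 14 of the TREX mRNA export complex (0.02), 18 nonsense-mediated decay factors (-0.02), 26 spliceosomal snRNP proteins (0.02) and 79 cytosolic ribosomal proteins (0.04). NCBP2, the small subunit that pairs with NCBP1, had a log2 fold change of -0.09 (adjusted p = 0.918), and NCBP3, an alternative partner, -0.01 (adjusted p = 0.984). Of 21 heat shock genes, 17 were below 0, with a median of -0.10. By unadjusted p (0.05), 7 of them were lower and none higher, where 3.29% of all genes were lower. Of 20 p53 targets, 4 were lower by the same measure (median -0.10), and of 22 sterol synthesis genes 3 were (median -0.06). These 3 lists differed less clearly from the other arms. Medians of T-REX minus light alone and minus DMSO were -0.02 and -0.03 for heat shock, 0.10 and -0.14 for p53. For sterol synthesis they were 0.04 and 0.06. Those of probe alone minus light alone and minus DMSO were 0.06 and 0.03 for heat shock and 0.20 and -0.05 for p53. For sterol synthesis both were 0.12. Of 18 genes that the paper names for its RNA-seq, which were picked on these samples and are no independent evidence, 4 were called, all lower (median -0.21). Among the others, POU3F2, a neural transcription factor, read 69.3, 76.5, 73.3 and 64.5 CPM against 88.4, 90.9, 91.3 and 81.8 (-0.31, adjusted p = 0.182). The chemokine receptor CXCR4 read 8.39, 8.82, 10.9 and 10.3 against 17.8, 19.2, 11.9 and 11.2 (-0.65, adjusted p = 0.172). HRK, a BH3-only activator of cell death, read 26.4, 27.5, 27.1 and 27 against 23.9, 24.2, 21.6 and 20.5 (0.26, adjusted p = 0.419). None of the 3 overlapped between the groups and none was called. In CXCR4, probe alone replicates 1 and 2 were again the high ones.

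The same 2 arms at 3 and 12 h, in libraries that share none with 6 h, gave more calls, 154 at 3 h (1.05% of genes) and 103 at 12 h (0.701%). Of the 16 genes called at 6 h, 6 were also called at 3 h (RARB, TXNIP, PDK1, MAP2K6, ARRDC4 and KDM3A) and 12 at 12 h, the same 6 included. The 4 called at neither were STC1, SEC24D, MIR4435-2HG and MTCO1P12. All 16 had the same sign at 12 h as at 6 h, and 14 at 3 h. RARB had log2 fold changes of -0.96 ± 0.0882 (standard error), -1.16 ± 0.0785 and -1.28 ± 0.0857 at 3, 6 and 12 h, and TXNIP of -0.70 ± 0.0994, -0.95 ± 0.0899 and -1.08 ± 0.099. SLC7A11 had 0.42 ± 0.112, 0.73 ± 0.0795 and 0.73 ± 0.11. Each kept its sign at all 3 times, and SLC7A11 was not called at 3 h (adjusted p = 0.0779).

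Other genes gave unlike values over time, although no difference between times passed its test. BNIP3 had log2 fold changes of -0.16 ± 0.108 at 3 h, -0.70 ± 0.12 at 6 h and -0.89 ± 0.0967 at 12 h. SEC24D had 0.10 ± 0.057, 0.35 ± 0.0639 and 0.09 ± 0.0581. In 1 fit of all 48 libraries with interaction terms, edgeR called 0 genes for 6 h minus 3 h and 0 for 12 h minus 6 h, while 1204 and 672 genes (8.2% and 4.58%) reached an unadjusted p of 0.05. The interaction for 6 h minus 3 h was -0.53 (standard error 0.17) for BNIP3 and 0.27 (0.0826) for SEC24D, each with an adjusted p of 0.485. Over all 14685 genes, which are not independent replicates, the log2 fold changes of 6 h had a Pearson correlation of 0.117 with those of 3 h and 0.266 with those of 12 h. The median of the hypoxia list was -0.16, -0.24 and -0.29 at 3, 6 and 12 h, with 6, 4 and 9 genes called, and that of amino acid and one-carbon synthesis 0.11, 0.19 and 0.21, with 3, 0 and 4 called.

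**Figure D3:**
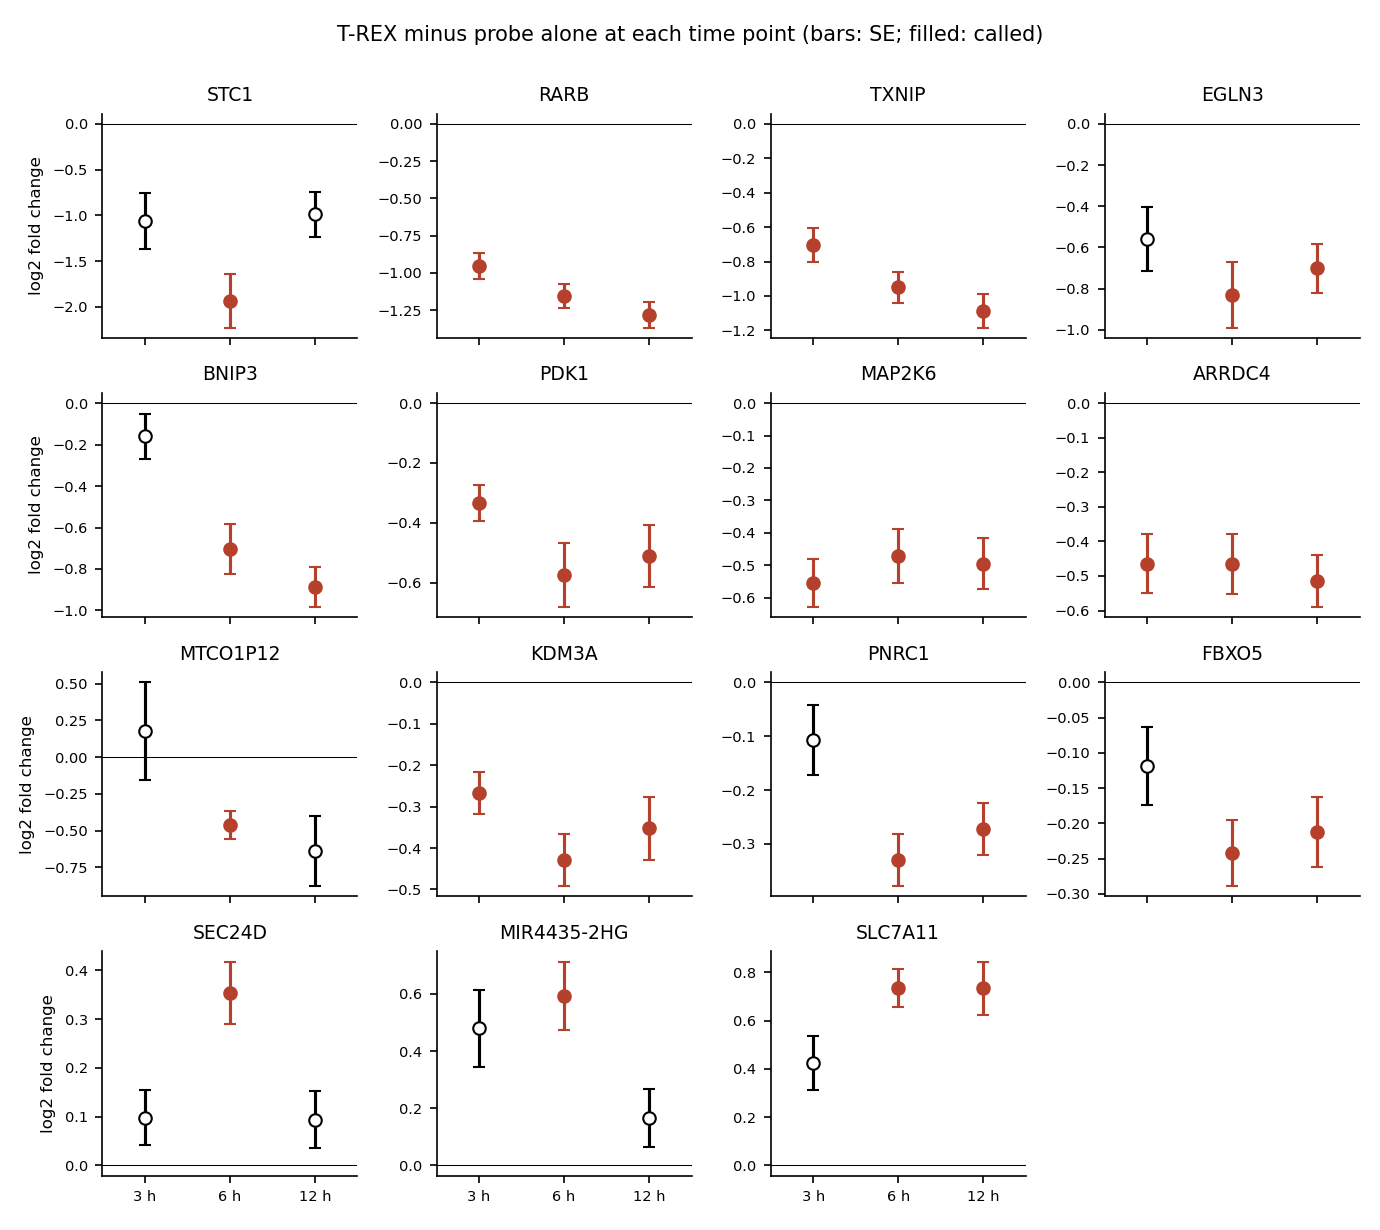
Log2 fold changes of T-REX minus probe alone, with standard errors, of 15 genes called at 6 h, at 3, 6 and 12 h on an axis of its own per gene (filled red: called at that time; open: not called). RARB, TXNIP, MAP2K6, ARRDC4, PDK1 and KDM3A are filled at all 3 times, whereas STC1, SEC24D, MIR4435-2HG and MTCO1P12 are filled at 6 h only.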

How the data were processed

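Human HEK293T RNA libraries were made by the authors with stranded Illumina reagents and sequenced paired-end. Ribosomal RNA was depleted in place of poly(A) selection, per the paper. The authors deposited whole-number counts per gene for 14685 Ensembl identifiers at each time point, which are the values tested. The authors also deposited log2 CPM of the same counts, used in 1 alternative, and 2 factors of unwanted variation per library, a score used as covariates in another. For the RNA-seq, the paper's reporting summary lists TopHat as aligner, with cutadapt and Cufflinks. The program that gave the whole-number counts and the genome build are not given in the sources used here, nor is the handling of strand or of reads that fit several genes, so genes with near copies or antisense partners are uncertain. Symbols were taken for 13452 genes, with GENCODE 29 holding 14556 identifiers.

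Counts of the 16 libraries of 6 h were fitted in R 4.3.3 with edgeR 4.0.16 (TMM, filterByExpr, which removed 0 genes, estimateDisp, glmQLFit with robust estimation), with 12 residual degrees of freedom and a biological coefficient of variation of 10.0%. T-REX minus probe alone was tested with the quasi-likelihood F-test and Benjamini-Hochberg adjustment over all genes, called at an adjusted p of at most 0.05. The 3 and 12 h libraries were fitted in the same way, and interactions in 1 fit of all 48 libraries. Alternatives used DESeq2 1.42.0, limma 3.58.1, RLE factors, other filters, other libraries and covariates. The scripts were tested on simulated data. Figures were made in Python 3.11.15. Named genes are NCBP1, called genes (up to 12 per direction with a mean of at least 100 counts and no overlap between groups, or in a list), regulators and members of lists, and genes named in the paper. Members, lists and tests were chosen with earlier results of these data known. Of the called genes, 1 lower gene is counted in the totals and not reported here. A list is described by its counts and median, with no test.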

Additional observations from a re-analysis of the deposited data

Results flagged for a closer look

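NCBP1 in probe alone replicate 2 stood at 64233 CPM, while the other 3 probe alone libraries lay between 87193 and 89353 CPM. It was noted because the gap to the nearest of the others took 0.926 of the range of the 4 log2 values, above Dixon's 95% limit for 4 samples. It was the 1 such library among 34 sets of 4 values checked (16 called genes and NCBP1 in 2 arms). Chance gives about 1 in 20 sets, so 1 flag among 34 is no more than chance would give. With the NCBP1 level of each library as a covariate, 31 genes were called in place of 16, and 14 of the 16 were among them. Without probe alone replicate 2, 7 genes were called.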

How the results depend on the processing

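At 6 h, the 16 calls became 16 with RLE factors, with no filter or with limma-trend on log2 CPM, 14 with a mean of at least 100 counts, 57 with DESeq2, 257 with the 2 RUV factors as covariates, 88 with only the 2 arms, 593 with only the 2 arms and the replicate block, and 31 with the NCBP1 level as covariate. The share of lower calls, 81.2%, was 59.6% with DESeq2, 70.8% with RUV factors and 71.6% with only the 2 arms. Leaving out 1 library gave 6 to 44 calls: 8, 8 and 6 without T-REX replicate 1, 2 or 4, 8 and 7 without probe alone replicate 1 or 2, and 44 without light alone replicate 3, which enters the spread only. Added after seeing the data, leaving out probe alone libraries 1 and 2 gave 3 calls, and leaving out the light alone and DMSO libraries 3 gave 89, of which 15 were among the 16. At 3 h, 154 calls became 3 with only the 2 arms and 2551 with RUV factors, and 18 to 535 without 1 library, over 1.5 times off without T-REX replicate 2, 3 or 4 or any probe alone replicate. At 12 h, 103 became 389, 901 and 29 to 209, over 1.5 times off without T-REX replicate 1, 2 or 4 or any probe alone replicate. Interactions stayed at 0 in each of the 18 alternatives. No called gene changed sign at 6 h. Uncalled genes near 0 did: with the NCBP1 level as covariate, the log2 fold change of MAP2K3 was -0.0017 and of NQO1 0.0374, and without the probe alone libraries 1 and 2 that of NCBP3 was 0.0086. Leaving out 1 library gave -0.0599 to 0.1869 for MAP2K3, -0.276 to 0.0336 for RARA and -0.016 to 0.1938 for RARG. The causes were not tested.

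With the replicate number as a block, 13 genes were called at 6 h, 12 of them among the 16 (FBXO5, PDK1, MIR4435-2HG and MTCO1P12 were not), 203 at 3 h and 90 at 12 h. Same-numbered T-REX and probe alone libraries deviated together with correlations of 0.471, 0.244, 0.0964 and 0.367 over 10082 genes. Each library correlated best with its own number, a hint from the data. The third pair is under 0.1 and the labels name no shared batch, so the numbers were not taken to pair libraries.

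The size of change that is called depends on the fit: the median size of the called log2 fold changes was 0.58 in the 16 calls, 0.23 with RUV factors and 0.20 with only the 2 arms and the replicate block. Light, HNE release and their timing cannot be told apart in this comparison. Low counts, such as those of STC1, carry wide errors.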
